A study of Mus musculus with 4 samples.

Results

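Probes at Cebpb, Cebpd, Cebpa and Pparg, the genes of transcription factors that drive fat cell formation, were followed on 4 DNA methylation arrays of 3T3-L1 cells. They were found by position alone, as the probes lying in windows around the 4 genes on mouse genome build mm9, and 48 of the 174638 probes met that rule, tiled over 5 of the 22125 segments of the array design. Cebpb held 17 of them, Cebpd 8, Cebpa 8 and Pparg 15. Their usable probes formed 5 regions, a pair in Cebpb and none in upstream Pparg, and were not placed relative to the gene starts. In each comparison of lines or days, 0 of these 5 regions passed the size used for calling a region. Of all regions 2.35% to 3.51% did. A count of 0 among 5 thus does not set the member regions apart from the rest of the array. In the antibody channel no probe of the 48 differed by that size between the arrays compared. Of all usable probes 0.188% to 0.417% did, so a count of 0 does not set the 25 usable members apart either. No such share was taken for the probes that were not usable.

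The study set 3T3-L1 cells, a mouse embryo fibroblast line that can be turned into fat cells, against the same line made to carry a short hairpin RNA, shRNA8, directed at the long noncoding RNA slincRAD. There were 4 groups with 1 array each: shRNA8 cells at day +2, shRNA8 cells at day -2, wild-type control cells at day +2 and wild-type control cells at day -2. The hairpin cells were stably transfected, and the labels do not say whether they were 1 clone or a mixed population, or whether the control cells carried an empty vector. Induction began at confluence, day 0, with 167 nM insulin, 1 µM dexamethasone and 0.5 mM of the phosphodiesterase inhibitor 3-isobutyl-1-methylxanthine, so the day -2 cells of either line had not received it. The input label of the shRNA8 day +2 array names day +2 but calls the cells not yet differentiated, so that label contradicts itself. On each array, DNA pulled down with an antibody to 5-methylcytosine (IP, Cy5) was hybridised together with unselected genomic DNA (input, Cy3), from 1 µg of DNA per labelling. RNA was not measured, so neither the loss of slincRAD nor the state of differentiation could be checked here.

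When 3T3-L1 cells are induced, the bZIP factors C/EBPβ and C/EBPδ, encoded by Cebpb and Cebpd, are made first, and they switch on Cebpa and Pparg. C/EBPα, also a bZIP factor, and the nuclear receptor PPARγ then activate each other and the genes of the mature fat cell. Pparg has alternative promoters, of which the upstream one gives the widely expressed PPARγ1 and the one farther downstream gives the fat-enriched PPARγ2. Cytosine methylation in mammals falls mainly on CG dinucleotides and is usually low in CG-dense promoters, and the antibody pulls down DNA fragments the more readily the more methylated CGs they hold.

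The bases before the starts of these genes are shown because the antibody acts on methylated cytosines, in mammals mainly those of CGs, and the promoters differ greatly in how many they hold. The sequences are the 250 bases before a start on the + strand, 5′ to 3′, from RefSeq on build GRCm38.p6, with each CG in capitals; this build differs from that of the array, so these positions cannot be set against the probe positions. The table matched 3 of the 4 genes, with Cebpd missing from it.
Cebpb, chr2:167688665-167688914: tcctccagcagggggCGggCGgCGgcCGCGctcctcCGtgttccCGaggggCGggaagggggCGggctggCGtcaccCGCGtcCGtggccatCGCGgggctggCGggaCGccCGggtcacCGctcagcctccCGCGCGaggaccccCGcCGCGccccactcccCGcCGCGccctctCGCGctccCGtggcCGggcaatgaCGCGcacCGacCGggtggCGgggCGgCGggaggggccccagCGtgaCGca
Cebpa, chr7:35119043-35119292: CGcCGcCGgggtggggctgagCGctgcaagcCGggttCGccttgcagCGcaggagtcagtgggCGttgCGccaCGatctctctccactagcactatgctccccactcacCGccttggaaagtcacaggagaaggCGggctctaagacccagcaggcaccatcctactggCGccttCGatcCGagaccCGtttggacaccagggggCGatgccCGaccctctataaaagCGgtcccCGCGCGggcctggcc
Pparg start 1, chr6:115360894-115361143: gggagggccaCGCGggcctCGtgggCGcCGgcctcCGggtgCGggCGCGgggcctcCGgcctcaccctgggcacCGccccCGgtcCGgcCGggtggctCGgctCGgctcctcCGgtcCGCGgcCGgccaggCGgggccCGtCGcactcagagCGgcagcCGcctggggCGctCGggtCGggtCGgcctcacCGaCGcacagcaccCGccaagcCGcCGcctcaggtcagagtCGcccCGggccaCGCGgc
Pparg start 3, chr6:115421816-115422065: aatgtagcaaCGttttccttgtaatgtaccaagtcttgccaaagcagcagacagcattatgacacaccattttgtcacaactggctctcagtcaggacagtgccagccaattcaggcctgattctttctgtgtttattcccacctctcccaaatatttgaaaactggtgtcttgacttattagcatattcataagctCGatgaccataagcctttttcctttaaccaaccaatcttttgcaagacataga

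The Cebpb sequence held 41 CGs, a number reached by 1.09% of the 32851 promoters in the table, whose median was 6. The sequence before Pparg start 1 held 38, reached by 1.88% of promoters, and that of Cebpa held 22, reached by 14.8%. Pparg start 2, 1205 bases after the first, had 12 CGs before it, reached by 33.5% of promoters. Start 3, 60922 bases after the first, had 2, and 29.0% of promoters had no more than that. The 3 starts of Pparg thus span CG-rich to CG-poor sequence within 1 gene. The letters TTGCNNAA, a common form of the C/EBP binding motif, were searched on both strands and occurred 2 times before Pparg start 3 and in none of the other 4 sequences; 9.56% of all promoters held them. The letters TGACG, the core of a site bound by CREB family factors, occurred 3 times before the Cebpb start and in none of the others, against 17.8% of all promoters. Such matches are a description of the letters and were not tested for binding.

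**Figure D1:**
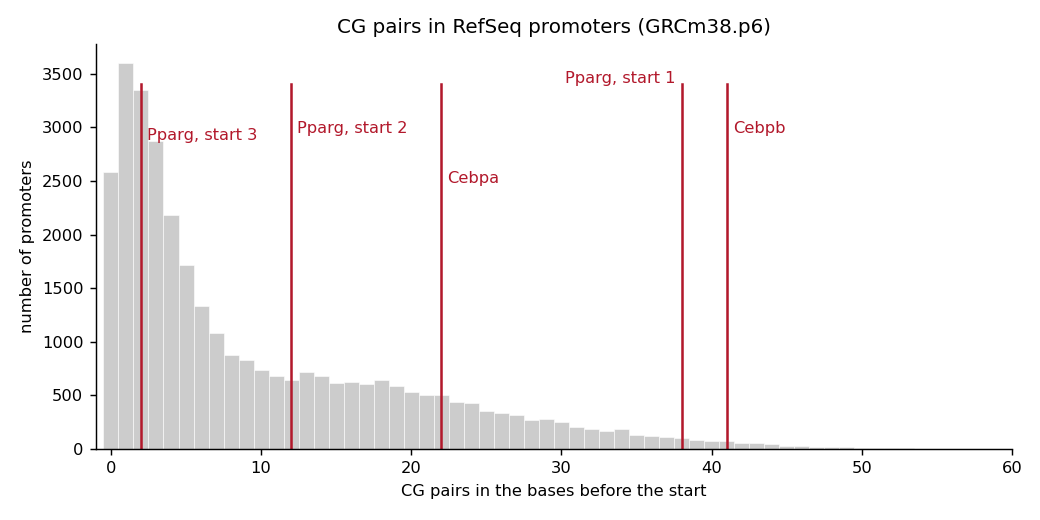
Number of CG dinucleotides in the 250 bases before the start (x axis) against the number of promoters in the RefSeq table (y axis). Lines mark the members: Cebpb at 41 and Pparg start 1 at 38 lie at the CG-rich end, Cebpa at 22 and Pparg start 2 at 12 lie between, and Pparg start 3 at 2 lies among the CG-poor promoters.

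The array covered the 4 genes with 5 tiled segments, and 33 of the 48 probes were 45 bp long. On mm9, Cebpb was tiled over chr2:167513122-167517040, Cebpd over chr16:15886089-15887696 and Cebpa over chr7:35903012-35904644. Pparg had an upstream segment at chr6:115309948-115311661 and a downstream one at chr6:115370831-115372420. No gene annotation of mm9 was used, so the segments are named by their order along the chromosome; their first bases lie 60883 bp apart, close to the 60922 bp between the first and the third RefSeq start.

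The value followed is the log2 ratio of IP to input signal, centred so that the median probe of each array is 0. It measures enrichment of methylated DNA relative to the other probes of the same array and is not a percentage of methylated cytosines. Probes were kept where no spot was marked as faulty and the input spot was above background on all 4 arrays, which held for 95060 probes, or 54.4% of the design. Kept probes at most 1000 bp apart were joined into 17452 regions of at least 3 probes. The median net input signal was 8.78 and 8.64 intensity units on the shRNA8 arrays of day +2 and day -2, and 5.95 and 6.49 on the control arrays of day +2 and day -2. Signals of single probes below are processed ones, on a larger scale. Processed input was a median of 22.5, 21.0, 26.4 and 24.3 times net input on these arrays, in the same order. For IP the factors were 5.14, 5.10, 5.33 and 5.29, so processed units cannot be set against these net medians. The arrays were numbered 1 and 2 for shRNA8 cells and 3 and 4 for control cells, so array and line cannot be told apart.

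Of the 48 member probes 25 were kept (52.1%): 12 of Cebpb, 4 of Cebpd, 5 of Cebpa and 4 of Pparg, the last made up of 3 in the downstream segment and 1 in the upstream one. The 23 left out had input too close to background on at least 1 array, although 20 of them had an IP signal above background on all 4. The kept probes formed 5 regions, a pair in Cebpb and 1 each in Cebpd, Cebpa and downstream Pparg. The upstream Pparg segment lost 6 of its 7 probes and formed none. Input was well above background on all 4 arrays for 18 kept probes, namely all 12 of Cebpb, 4 of Cebpa, 2 of Cebpd and none of Pparg, so the Pparg ratios rest on dim spots. Because each group is 1 array, no difference here has a replicate check and no p-value is given; each SD is the spread over neighbouring probes on the same arrays, which are not replicates, and it does not cover variation between cultures.

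On the members, as on the array as a whole, values differed more from probe to probe than from array to array. Averaged over the 4 arrays, the 25 kept probes ran from -5.76 to 2.49, with 14 above 0 and 11 below and an SD of 1.71 between probes, beside 1.63 for all kept probes. The same probe moved by a median of 0.51 between its lowest and highest array, beside 0.60 for all kept probes, and by 1.45 at most. Pairs of arrays correlated at r = 0.960 to 0.986 across these 25 probes, which share the sequence of each probe and so give a description only, and at r = 0.935 to 0.951 across all kept probes. In the IP channel alone each of the 48 probes moved by a median of 0.17 across the 4 arrays, beside 0.18 for all probes, and none by more than 0.57.

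**Figure D2:**
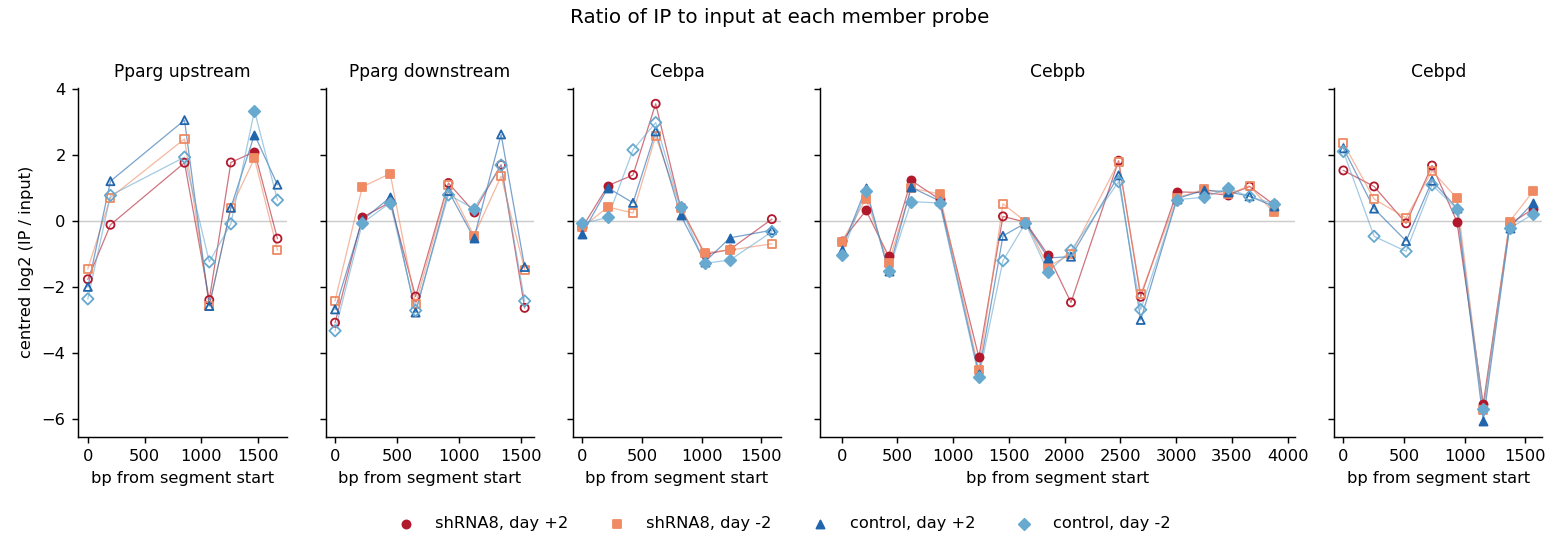
Centred log2 ratio of IP to input (y axis) along the 5 segments, by distance from the first base of the segment in bp (x axis), 1 line per array. Filled points are the 25 kept probes and open points the 23 left out, and the lines run through both. The 4 arrays trace the same profile, with lone deep minima at -5.76 in Cebpd and -4.51 in Cebpb, while the arrays part most in Pparg.

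Cebpb, an early activator of the programme, was the best measured of the 4 genes. Its first region, chr2:167513122-167515018 with 8 probes, had a mean ratio of -0.59 in shRNA8 cells at day +2, -0.67 in shRNA8 cells at day -2, -0.70 in control cells at day +2 and -0.86 in control cells at day -2. All 4 arrays thus placed it below the median probe, and its mean over the arrays, -0.71 ± 1.78 (SD, 8 probes), stood at percentile 26.8 of regions. The wide SD came from a single probe at chr2:167514353-167514397, at -4.14 in shRNA8 cells at day +2 and -4.52 at day -2, against -4.65 in control cells at day +2 and -4.72 at day -2. Its processed input signal of 13763 units in shRNA8 cells at day +2 and 14145 at day -2, against 15661 in control cells at day +2 and 15605 at day -2, was far brighter than its IP signal of 938 units in shRNA8 cells at day +2 and 755 at day -2, against 799 in control cells at day +2 and 759 at day -2. Without that probe the region averaged -0.16 ± 0.98 over 7 probes. Its highest probe, chr2:167513746-167513791, read 1.23 in shRNA8 cells at day +2 and 0.99 at day -2, against 1.01 in control cells at day +2 and 0.58 at day -2.

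The second Cebpb region, chr2:167516130-167517040 with 4 probes, lay on the other side of the median. Its mean ratio was 0.75 in shRNA8 cells at day +2 and 0.68 at day -2, against 0.73 in control cells at day +2 and 0.72 at day -2. The 4 arrays lay within 0.07 of each other, and the mean of 0.72 ± 0.20 (SD, 4 probes) stood at percentile 90.6. Its highest probe, chr2:167516587-167516633, read 0.78 in shRNA8 cells at day +2 and 0.81 at day -2, against 0.88 in control cells at day +2 and 0.99 at day -2. Its lowest probe, chr2:167516996-167517040, read 0.50 in shRNA8 cells at day +2 and 0.26 at day -2, against 0.44 in control cells at day +2 and 0.52 at day -2. All 4 probes of this region were above 0 on every array. The 2 Cebpb regions, with 1111 bp between them, therefore stood 1.43 apart on the log2 scale in mean level. The gene as a whole averaged -0.23 ± 1.59 over its 12 kept probes.

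Cebpd, the other early factor, was kept only in the part of its segment with the higher coordinates, at chr16:15887025-15887696 with 4 probes. The region's mean ratio was -1.33 in shRNA8 cells at day +2 and -1.05 at day -2, against -1.33 in control cells at day +2 and -1.35 at day -2. That mean, -1.26 ± 3.01 (SD, 4 probes), stood at percentile 11.1, but it was carried by the probe at chr16:15887242-15887286. This probe read -5.55 in shRNA8 cells at day +2 and -5.73 at day -2, against -6.06 in control cells at day +2 and -5.71 at day -2. Its processed input signal was 596872 units in shRNA8 cells at day +2 and 708615 at day -2, against 622260 in control cells at day +2 and 537085 at day -2, at percentile 99.99 of kept probes. Its IP signal was 15244 units in shRNA8 cells at day +2 and 16296 at day -2, against 11945 in control cells at day +2 and 13159 at day -2. The low ratio thus stood on a spot that was bright in both channels and brightest in input. Without it the region averaged 0.24 ± 0.33 over 3 probes, and the median of the 4 probes was 0.09, at percentile 55.0. Its highest probe, chr16:15887652-15887696, read 0.36 in shRNA8 cells at day +2 and 0.89 at day -2, against 0.54 in control cells at day +2 and 0.20 at day -2.

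Cebpa, which with Pparg holds cells in the fat cell state, lay near the array median. Its region, chr7:35903012-35904294 with 5 probes, had a mean ratio of -0.12 in shRNA8 cells at day +2 and -0.25 at day -2, against -0.19 in control cells at day +2 and -0.41 at day -2. The mean of -0.24 ± 0.76 (SD, 5 probes) stood at percentile 47.7. The highest probe, chr7:35903227-35903275, read 1.07 in shRNA8 cells at day +2 and 0.42 at day -2, against 1.00 in control cells at day +2 and 0.10 at day -2, so both day +2 arrays were above both day -2 arrays. The lowest, chr7:35904038-35904082, read -1.02 in shRNA8 cells at day +2 and -0.97 at day -2, against -1.24 in control cells at day +2 and -1.28 at day -2, so both shRNA8 arrays were above both control arrays. Its centred input was 2.87 and 2.91 in shRNA8 cells at day +2 and day -2, against 3.19 and 3.17 in control cells. Its centred IP was 1.67 and 1.75, against 1.74 and 1.70, so IP did not split the lines. How many probes of the array show such orders was not counted.

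Pparg, which with Cebpd had the fewest usable probes, had a mean ratio of 0.87 ± 1.14 (SD, 4 probes). That was above the means of the other 3 genes, but it was raised by 1 upstream probe at 2.49, and the median over probes was 0.54 in Pparg and 0.54 in Cebpb. With median spot signals the mean of Pparg was below that of Cebpb on all 4 arrays, at -0.010 and 0.25 in shRNA8 cells at day +2. With no filter on input it was below that of Cebpa on all 4, at -0.08 and 0.70 on that array. The only kept upstream probe, chr6:115311415-115311459, read 2.10 in shRNA8 cells at day +2 and 1.89 at day -2, against 2.62 in control cells at day +2 and 3.34 at day -2. It stood at percentile 99.04 of kept probes, and both shRNA8 arrays were below both control arrays. Its processed IP signal was 2382 units in shRNA8 cells at day +2 and 2318 at day -2, against 2332 in control cells at day +2 and 2229 at day -2, whereas its input signal was 465 units in shRNA8 cells at day +2 and 510 at day -2, against 297 in control cells at day +2 and 171 at day -2. The arrays thus differed at this probe in input and hardly in IP.

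The downstream Pparg region, chr6:115371051-115372007 with 3 probes, had a mean ratio of 0.31 in shRNA8 cells at day +2 and 0.67 at day -2, against 0.07 in control cells at day +2 and 0.28 at day -2. Its mean of 0.33 ± 0.45 (SD, 3 probes) stood at percentile 76.9, but in its channels it was dim, at percentile 14.2 of regions in IP and 3.03 in input. With a trend on probe length removed, the mean of this region was 0.87, at percentile 93.6. The other member regions then stood at percentiles 23.6 and 88.3 in Cebpb, 9.49 in Cebpd and 44.6 in Cebpa. Its highest probe, chr6:115371276-115371335, read 0.56 in shRNA8 cells at day +2 and 1.43 at day -2, against 0.71 in control cells at day +2 and 0.55 at day -2. The probe at chr6:115371051-115371095 read 0.10 in shRNA8 cells at day +2 and 1.03 at day -2, against 0.02 in control cells at day +2 and -0.07 at day -2. Both were highest on the shRNA8 day -2 array, with the other 3 arrays close together. The lowest probe, chr6:115371952-115372007, read 0.27 in shRNA8 cells at day +2 and -0.45 at day -2, against -0.53 in control cells at day +2 and 0.37 at day -2, an order shared by neither of its neighbours.

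In the IP channel, where all 48 probes could be used, the segments fell in another order. The median centred IP level of a segment, averaged over arrays, was 0.55 for Cebpb, -0.03 for Cebpa, -1.35 for Cebpd, -2.01 for downstream Pparg and -2.03 for upstream Pparg. These levels stood at percentiles 78.8, 71.8, 53.3, 44.3 and 44.0 of all probes, from Cebpb to upstream Pparg. The Pparg segments were thus lowest by IP over all probes, and the kept probes are by construction the ones with brighter input. Levels of different probes also depend on their length and sequence, so these orders describe spots and are no measure of which segment is more methylated.

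**Figure D3:**
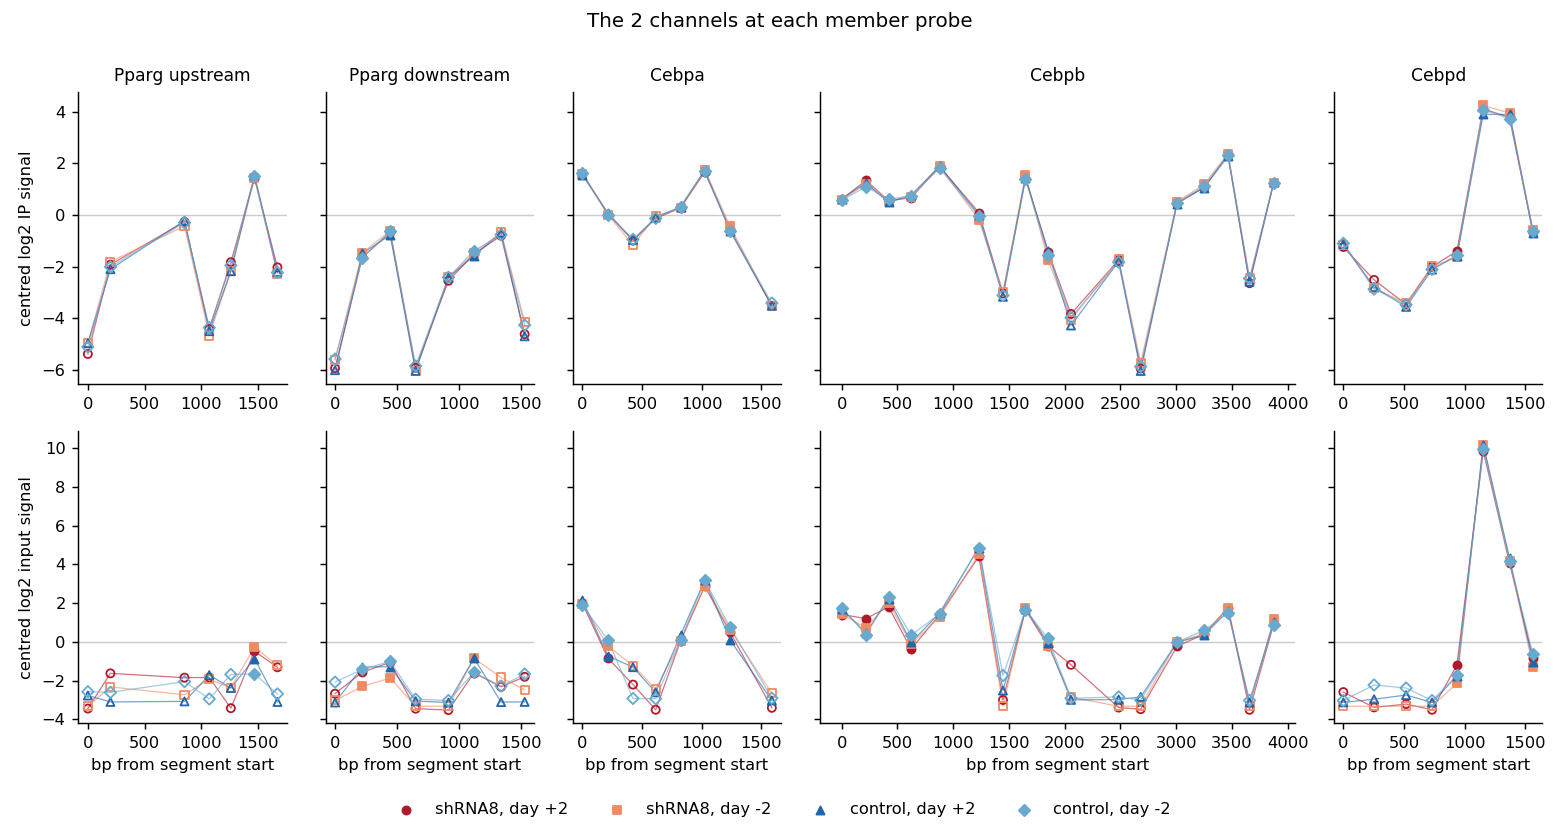
Centred log2 IP signal (upper row) and input signal (lower row) of all 48 member probes (y axes) by distance from the first base of the segment in bp (x axis), 1 line per array. The IP lines of the 4 arrays nearly coincide, moving by 0.57 at most for any of the 48 probes, while the input lines part at the dim spots.

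At day +2, shRNA8 cells were compared with control cells to see whether the member regions differed between the lines after induction. None of the 5 member regions was called, that is, none differed on average by 0.6 log2 units (1.52-fold) or more with 75% or more of its probes on that side; 3.51% of all regions did. The differences, shRNA8 minus control, were 0.12 ± 0.37 in the first and 0.020 ± 0.14 in the second Cebpb region, 0.0049 ± 0.40 in Cebpd, 0.07 ± 0.25 in Cebpa and 0.25 ± 0.49 in downstream Pparg (SD over probes). Each was smaller than the spread between its own probes. Among kept member probes 2 of 25 passed 0.6, where 24% of all kept probes did. These were chr2:167513341-167513385 of Cebpb, at 0.32 in shRNA8 cells and 1.00 in control cells, and chr6:115371952-115372007 of Pparg, at 0.27 in shRNA8 cells and -0.53 in control cells. The Cebpb probe was thus lower and the Pparg probe higher in shRNA8 cells, while the other 7 probes in the region of the Cebpb probe were higher in shRNA8 cells. Of all kept probes 55.2% were higher in shRNA8 cells, and how many regions are as one-sided was not counted in this or the later comparisons.

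At day -2, before induction, again 0 of the 5 member regions were called, where 2.56% of all regions were. The differences, shRNA8 minus control, were 0.18 ± 0.21 in the first and -0.04 ± 0.23 in the second Cebpb region, 0.30 ± 0.30 in Cebpd, 0.16 ± 0.21 in Cebpa and 0.39 ± 1.05 in downstream Pparg (SD over probes). The first Cebpb region was higher in shRNA8 cells for 7 of its 8 probes, and 44.0% of all regions had a difference at least as large in size; in IP alone its mean was -0.013. In Cebpd 3 of 4 probes were higher, and 22.2% of regions had a difference at least as large. Of all kept probes 53.2% were higher in shRNA8 cells. Of the kept member probes 5 of 25 passed 0.6, beside 20.9% of all kept probes, and 4 of the 5 lay in Pparg. Upstream, chr6:115311415-115311459 was 1.45 lower in shRNA8 cells, with a difference of -0.08 in IP and 1.38 in input. Downstream, the neighbours chr6:115371051-115371095 and chr6:115371276-115371335 were 1.1 and 0.88 higher in shRNA8 cells, whereas chr6:115371952-115372007 was 0.83 lower. Within 957 bp, the 3 probes of the downstream Pparg region therefore moved in opposite directions. The remaining probe, chr16:15887652-15887696 of Cebpd, was 0.69 higher.

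**Figure D4:**
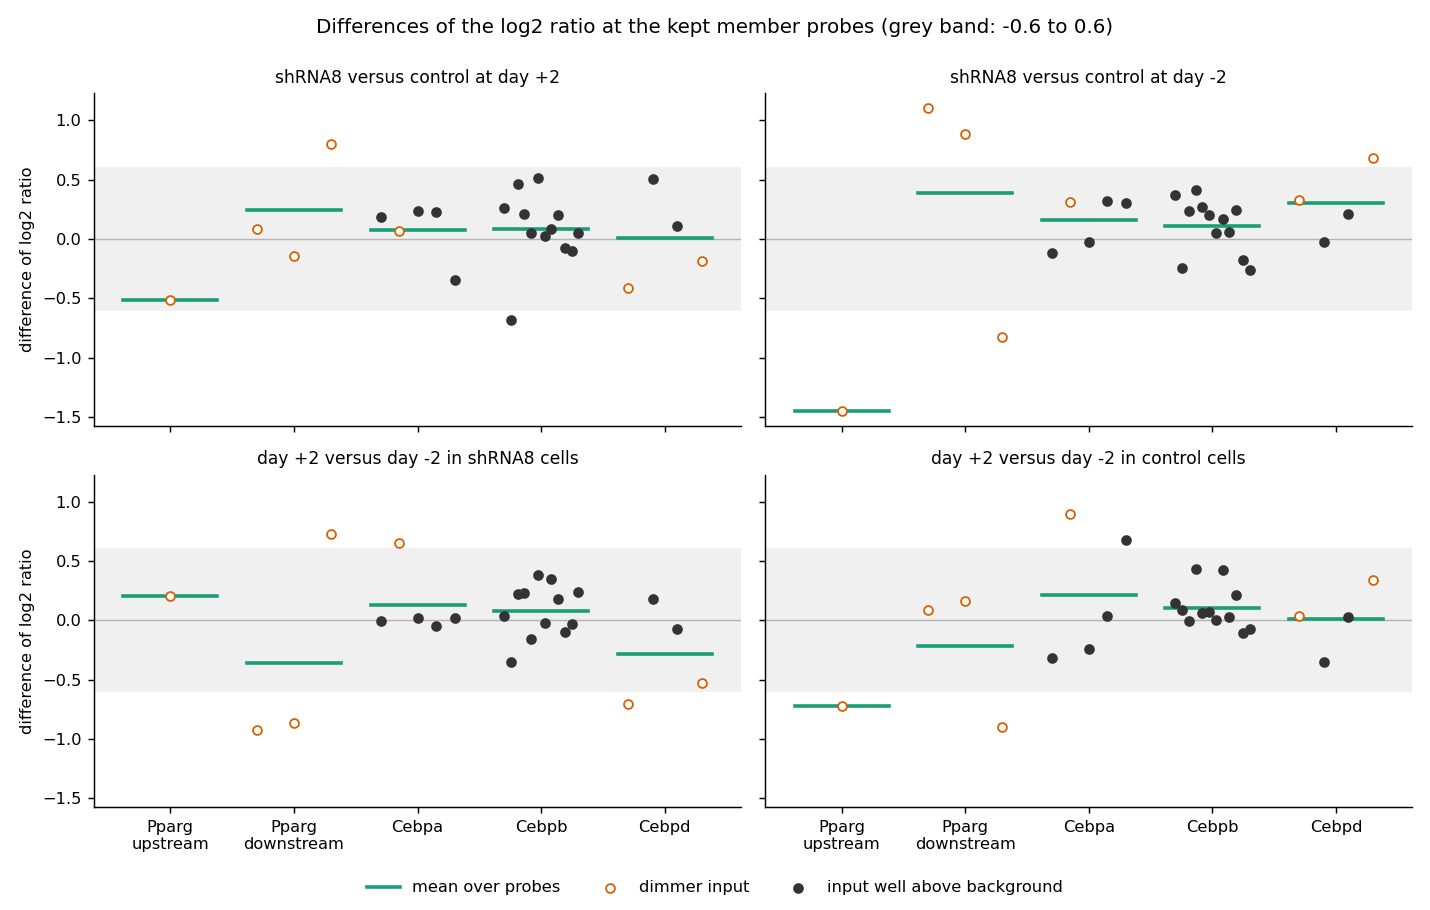
Difference of the centred log2 ratio (y axis) of each kept member probe, by segment, in the 4 comparisons (shRNA8 minus control at day +2 and at day -2, day +2 minus day -2 in shRNA8 and in control cells). A grey band marks 0.6 in either direction. In Cebpb 1 value lies outside the band, at -0.69 for shRNA8 minus control at day +2. Of the 16 values outside the band 10 belong to Pparg, whose kept probes all had dimmer input. Of all kept probes 18.7% to 24% lay outside it, and of those with dimmer input 35.2% to 40.9%.

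In shRNA8 cells, day +2 was compared with day -2 to see what changed over induction. No member region was called (0 of 5), where 2.96% of all regions were. The changes, day +2 minus day -2, were 0.09 ± 0.26 in the first and 0.07 ± 0.16 in the second Cebpb region, -0.28 ± 0.41 in Cebpd, 0.13 ± 0.29 in Cebpa and -0.36 ± 0.94 in downstream Pparg (SD over probes). In Cebpd 3 of 4 probes were lower at day +2, where 52.7% of all kept probes were higher. Of all regions 23.3% changed at least as much as Cebpd. The mean of the Cebpd region was 0.0028 with median spot signals, so its sign depended on the signal used. Past 0.6 were 5 of 25 kept member probes, beside 18.7% of all kept probes. Lower at day +2 were chr6:115371051-115371095 and chr6:115371276-115371335 of Pparg, by 0.93 and 0.87, and chr16:15887025-15887069 of Cebpd, by 0.70. Higher were chr6:115371952-115372007 of Pparg, by 0.73, and chr7:35903227-35903275 of Cebpa, by 0.65. The same shRNA8 day -2 array enters this comparison and the one between lines at day -2, so the high readings of that array at the first 2 Pparg probes appear in both.

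In control cells, which show the course of induction without the hairpin, 0 of 5 member regions were called, beside 2.35% of all regions. The changes, day +2 minus day -2, were 0.15 ± 0.18 in the first and 0.016 ± 0.15 in the second Cebpb region, 0.014 ± 0.28 in Cebpd, 0.21 ± 0.55 in Cebpa and -0.22 ± 0.59 in downstream Pparg (SD over probes). The first Cebpb region was higher at day +2 for 7 of 8 probes, and 50.1% of all regions changed at least as much. Of all kept probes 48.0% were higher at day +2. Of the kept member probes 4 of 25 passed 0.6, beside 20% of all kept probes. In Cebpa, chr7:35903227-35903275 was 0.90 higher at day +2 and chr7:35904250-35904294, at -0.51 at day +2 and -1.19 at day -2, was 0.67 higher. In Pparg, chr6:115371952-115372007 was 0.90 lower and chr6:115311415-115311459 was 0.72 lower. The Cebpa probe at chr7:35903227-35903275 was thus the only member probe past 0.6 in the same direction over induction in both lines; its input was lower at day +2 by 0.62 in shRNA8 cells and 0.82 in control cells, and its IP differed by 0.04 and 0.05.

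The change over induction was also set against that of the other line, as the change in shRNA8 cells minus the change in control cells. This difference of changes was -0.07 ± 0.24 in the first and 0.06 ± 0.27 in the second Cebpb region, -0.30 ± 0.65 in Cebpd, -0.09 ± 0.39 in Cebpa and -0.14 ± 1.53 in downstream Pparg (SD over probes). None of the 5 regions passed the size for calling, beside 6% of all regions. Of the kept member probes 7 of 25 passed it, beside 30.4% of all kept probes. In Pparg all 4 kept probes did, at 0.93 for chr6:115311415-115311459, -1.02 for chr6:115371051-115371095, -1.03 for chr6:115371276-115371335 and 1.62 for chr6:115371952-115372007, so 2 were positive and 2 negative. None of the 12 Cebpb probes did. All kept Pparg probes had dimmer input, and all kept Cebpb probes had input well above background. Over the whole array the SD of this difference of changes was 0.99 for kept probes with dimmer input and 0.44 for those well above background. No share by brightness was taken here, so the counts do not compare the genes on equal terms.

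Where member probes differed, the difference lay mostly in the input channel. Over the 4 comparisons of lines and days, which share the same 4 arrays, 16 of 100 probe values were past 0.6. Of all kept probes 18.7% to 24% were, by comparison. The 16 values differed by 0.62 to 1.38 in size in the input channel and by 0.24 at most in the IP channel. The array as a whole showed this too: over all kept probes the SD of the differences was 0.51 to 0.57 in input and 0.11 to 0.14 in IP. In IP alone no member probe of the 48 passed 0.6 in any of these comparisons, and the share of all kept probes that did was 0.188% for the lines at day +2, 0.417% for the lines at day -2, 0.262% for the days in shRNA8 cells and 0.333% for the days in control cells. These shares cover kept probes only, and none was taken for the other probes of the array. The largest mean IP difference of any member region was 0.09.

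The counts were also taken by brightness of the input. Among the 18 member probes with input well above background, those past 0.6 numbered 1 for lines at day +2, 0 for lines at day -2, 0 for days in shRNA8 cells and 1 for days in controls, beside 11.9%, 7.79%, 6.94% and 6.2% of such probes on the whole array. Among the 7 with dimmer input the counts were 1, 5, 5 and 3, beside 40.9%, 39.3%, 35.2% and 39.2%. Pparg, all of whose kept probes were dim, held 10 of the 16 values past 0.6 in its 16 probe values, while Cebpb, all of whose kept probes were bright, held 1. The part of input brightness in these differences was not tested beyond these counts.

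**Figure D5:**
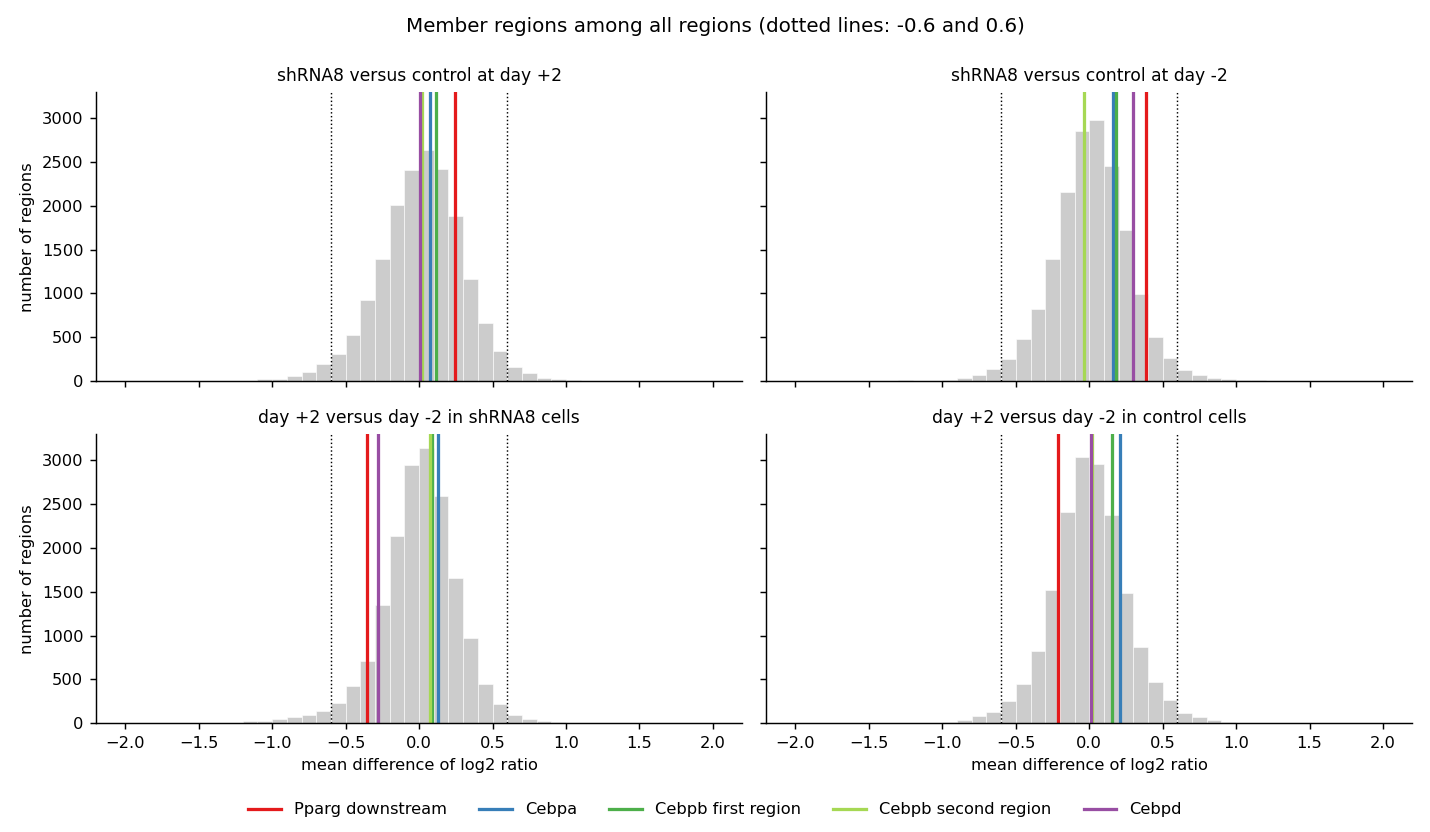
Distribution of the mean difference of the centred log2 ratio over all 17452 regions (x axis, log2, and y axis, number of regions) in the 4 comparisons, with lines at the 5 member regions and dotted lines at the 0.6 used for calling. All member regions lie between -0.36 and 0.39, inside the dotted lines.

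Regions elsewhere on the array with a mean ratio most like those of the members over the 4 arrays were found by Euclidean distance. The first Cebpb region was nearest to chrX:8469251-8469911, at a distance of 0.051, and chr14:59761436-59762709, at 0.055. Cebpd was nearest to chr8:19447249-19448762, at 0.066, and chr7:87390027-87391562, at 0.094. Cebpa was nearest to chr1:100027368-100028230, at 0.060, and chr17:15767454-15768573, at 0.062. Downstream Pparg was nearest to chr3:89568268-89569132, at 0.069, and chr2:35546782-35547749, at 0.10. Such profiles were common: 2264 of 17447 other regions lay within 0.5 of the first Cebpb region, 912 of Cebpd, 3046 of Cebpa and 1131 of downstream Pparg.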

How the data were processed

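Each of the 4 arrays compared IP DNA (Cy5) with input DNA (Cy3) from 1 group; per the file headers, spots were read with Agilent Feature Extraction (version 11.0.1.1). The deposited values are spot intensity in each channel, of which the processed intensity is background-subtracted and dye-normalized, per the file headers. The arrays were not scaled alike. On the shRNA8 day -2 array, processed over net input was 20.97 at nearly all spots above background. It ran from 21.7 to 25.6 in shRNA8 cells at day +2. In control cells it ran from 25.3 to 29.7 at day +2 and from 23.5 to 27.4 at day -2. The part of this in the differences was not tested. The submitters' processing notes name limma without a version. The array's probe names give mm9 positions.

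From these the log2 ratio of processed IP to input intensity was computed and centred to a median of 0 per array, which leaves it the difference of the channels up to a constant of -0.21 to -0.18 per array. Probes were kept, joined and called as stated in the results (no faulty spot, input above background on all 4 arrays, gap of at most 1000 bp, at least 3 probes, 0.6 log2 and 75% of probes). The precision is set by the number of arrays, 1 per group. Named single probes were, per region, those of highest and lowest mean level and, per gene and comparison, that of largest difference, with other probes past 0.6 added after their values were seen. Members and lists were chosen with earlier results of these data known. Other adipogenic regulators were not analysed here, since no mm9 annotation was used. The calling steps were run on real differences shuffled over the probes, with known differences added to some regions. That run checked only that the mean added difference was recovered. Shuffling removes any likeness between neighbouring probes, so the run does not show how often regions are called wrongly in these data. Alternatives were quantile normalization, scaling to 1 median absolute deviation, loess on intensity (limma 3.58.1, R 4.3.3), removal of a trend on probe length, no filter, a stricter filter, median spot intensity, IP alone, sizes of 0.4 and 1, all probes on 1 side, and medians over probes. Python 3.11.15, numpy 2.4.6, pandas 2.3.3 and matplotlib 3.10.9 were used.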

Additional observations from a re-analysis of the deposited data

Results flagged for a closer look

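The Pparg probe at chr6:115371952-115372007 moved in opposite directions under the same contrast, with 1 array on each side, and the difference was not tested. Between lines, shRNA8 minus control, it differed by 0.799 at day +2 and by -0.825 at day -2. Over induction, day +2 minus day -2, its change was 0.726 in the shRNA8 line and -0.898 in the control line. The input channel differed by -0.76 and 0.74 between lines at day +2 and day -2, and the IP channel by 0.06 and -0.10; their part in the result was not tested beyond these values.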

How the results depend on the processing

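No paired analysis was possible because each group has 1 array and the groups share no replicate numbers beyond 1; a fit of line plus day over the 4 arrays, with the difference of changes as its error, was not run. No member region was called in any comparison under any alternative, with 3 regions left where input had to be well above background and 4 without the probe of lowest level in each region, an alternative chosen after seeing the data. The 16 mean differences by gene between lines or days lay between -0.34 and 0.30, and between -0.53 and 0.44 under the alternatives; 12 of them took the other sign under at least 1, so their signs depend on the setting. The counts of member probes past the size are given for the lines at day +2, the lines at day -2, the days in shRNA8 cells, the days in control cells and the difference of changes. They were 2, 5, 5, 4 and 7 of 25 as reported. In IP alone they were 0 in all 5, with input well above background 1, 0, 0, 1 and 1 of 18, with median spot signals 0, 1, 0, 0 and 1, and with no filter 14, 14, 15, 12 and 20 of 48. At a size of 1 they were 0, 2, 0, 0 and 3. At a size of 0.4 the count for the lines at day +2 was 7, and with loess, or without the lowest probes, it was 1. Beyond the shares given in the results, the share of all probes past the size was not taken under these alternatives. The counts thus cannot be set against the array and do not describe these genes in particular. In IP alone the level of Cebpa was 0.64 in shRNA8 cells at day -2 and 0.62 in control cells at day -2, and that of Pparg was -0.60, -0.53 and -0.54 in shRNA8 cells at day +2, shRNA8 cells at day -2 and control cells at day -2. With no filter the level of Cebpa in control cells at day -2 was 0.57, and its differences were -0.30 between lines at day -2, 0.43 between days in shRNA8 cells and 0.53 for the difference of changes. The cause was not tested.

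Counts of all regions called, in the same order, were 612, 447, 516, 410 and 1047. They were 1166, 946, 960, 962 and 1605 with loess, 78, 43, 86, 43 and 100 with input well above background, 14, 8, 8, 2 and 25 with median spot signals, 0, 0, 0, 0 and 1 in IP alone, 1911, 1457, 1425, 1366 and 2367 at a size of 0.4, and 48, 46, 70, 28 and 177 at a size of 1. With no filter they were 297 between lines at day -2 and 267 between days in control cells, and with all probes on 1 side the difference of changes gave 615. Scaling to 1 median absolute deviation gave 222 regions higher and 424 lower in shRNA8 cells at day +2, beside 290 and 322. Loess gave 423 higher and 537 lower at day +2 in shRNA8 cells, beside 166 and 350. It limits these results that each group is 1 array and that 23 of 48 member probes had input too dim to use.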
